A study of Danio rerio with 4 samples.

Results

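The collagen genes of zebrafish (Danio rerio) were followed in whole embryos at 96 and 24 hours post fertilization (hpf), with and without added copper. A gene was counted as a collagen when the RefSeq accession of its probe gave a symbol that starts with col, a type number, the letter a and a chain number. The rule found 23 collagen genes with 58 probes among 13366 named genes with 25957 probes on the array. A probe was kept when its spot was well above background on at least 2 of the 4 arrays, which left 22 collagens with 49 probes. Of the 60 collagen symbols in the RefSeq gene table, the others were not matched to a probe through an accession and were not analysed here.

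Total RNA of whole embryos was extracted with TRIzol and labelled for a single-colour Agilent array. The 4 groups held 1 array each: embryos in 3.9 µM copper at 96 hpf, embryos with 0 µM added copper at 96 hpf (control), embryos in 3.9 µM copper at 24 hpf, and embryos with 0 µM added copper at 24 hpf (control). The labels name neither the strain nor the copper salt, and nothing in them says how many embryos an array stands for. Treatment was taken from the sample labels, whereas the names of the scanner files and the authors' deposited table give the opposite treatment at both ages, so every copper sign below would turn if those were right, and no sign of the age comparison would.

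Collagens are the main structural proteins of animal matrix, built from chains that wind into a triple helix and are then cross-linked. Fibrillar chains of types I and V form the tension-bearing fibres of skin, fins, tendon and bone. Type II chains, with types XI and IX, form the fibrils of cartilage and of the sheath around the notochord, and type X chains mark hypertrophic cartilage and, in zebrafish, forming bone. Type IV chains form the sheet of basement membranes. Lysyl oxidases, the enzymes that cross-link collagens, carry copper in their active site.

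By these classes the detected members were 6 fibrillar, 11 cartilage, 1 basement membrane and 4 other collagens. The fibrillar class held types I and V only. Fibril-forming chains of types II, XI and XXVII were counted as cartilage collagens. The member that did not pass was col19a1, whose 1 probe was well above background on no array. Levels are quantile-normalized log2 signals, a scale on which a difference of 1 is 2-fold. A gene is represented by its brightest probe, that with the highest mean log2 signal over the 4 arrays, and its other probes are given beside it. Signals of different probes are not compared with each other. Because the embryos were processed whole, fewer cells of a type and less RNA per cell cannot be told apart.

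The arrays had 76.9% to 83.7% of probes well above background and no saturated spot, but their brightness was uneven. The median probe signal was 190.4 on the copper and 194.5 on the control array at 96 hpf, against 366.8 on the copper and 162.3 on the control array at 24 hpf. Between repeated spots of a probe the median SD was 0.05 to 0.09 on the log2 scale, a spread of measurement and not of embryos.

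**Figure D1:**
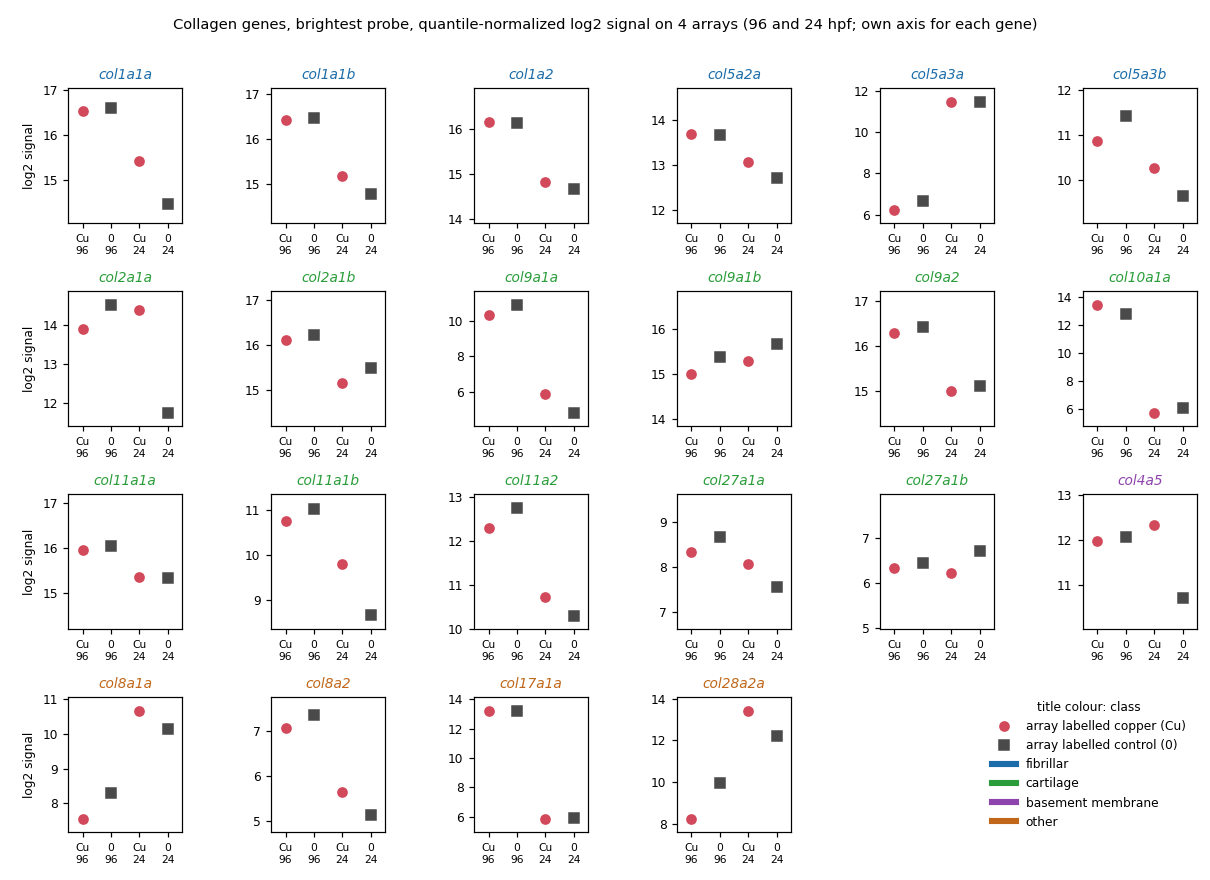
Quantile-normalized log2 signal of the brightest probe of each of the 22 detected collagens on the 4 arrays, each gene on its own axis, 96 hpf left of 24 hpf and copper (Cu, circles) left of control (0, squares). The ages separate widely for col17a1a, col10a1a, col9a1a and col5a3a, while col2a1a and col4a5 are set apart by a low 24 hpf control array.

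The age comparison sets 96 hpf larvae against 24 hpf embryos. At 96 hpf 12 of the 22 collagens were higher and 3 were lower than at 24 hpf, by a limma model with age and copper as terms and a Benjamini-Hochberg adjusted p under 0.05 over all probes. Over all measured genes, 17.3% were higher and 15.1% lower by the same rule. By probes, 28 of 49 collagen probes were higher (14.9% of all probes) and 4 were lower (15.7%). The median collagen difference, 96 minus 24 hpf, was 1.17 on the log2 scale, against -0.10 over all genes. The model has 2 arrays per age and 1 residual degree of freedom, and nothing in the labels says that arrays held separate pools. With 1 array per age and treatment, that degree of freedom is the disagreement of a probe's copper differences between the ages. limma pools it with that of other probes. The model's p-values therefore do not measure a spread between embryos or between repeated arrays.

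Of the fibrillar collagens, the type I chains rose together. col1a1a, the alpha 1 chain of type I collagen, had log2 signals of 16.53 (copper) and 16.59 (control) at 96 hpf, against 15.41 (copper) and 14.47 (control) at 24 hpf. Both 96 hpf arrays lay above both 24 hpf arrays, and the difference was 1.62 (SE 0.26, 3.07-fold, adjusted p = 0.00121 by limma). All 4 of its probes rose. Its paralogue col1a1b had signals of 16.43 (copper) and 16.46 (control) at 96 hpf, against 15.18 (copper) and 14.79 (control) at 24 hpf, and rose by 1.46 (SE 0.21, adjusted p = 0.000768). The alpha 2 chain gene col1a2 had 16.15 (copper) and 16.14 (control) at 96 hpf, against 14.83 (copper) and 14.66 (control) at 24 hpf, and rose by 1.40 (SE 0.21, adjusted p = 0.001). Each of the 3 measured probes of both genes rose, so the type I genes gave one answer on every probe.

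Type V genes, whose chains start type I fibrils and set their width, went different ways. col5a3a had log2 signals of 6.22 (copper) and 6.65 (control) at 96 hpf, against 11.47 on both the copper and the control array at 24 hpf. Its ages did not overlap, and its difference of -5.03 (SE 0.44, 32.8-fold lower, adjusted p = 3.89e-05) was the most negative among the brightest collagen probes. Its other probe stayed near background on both arrays of 96 hpf, which gives a bound of at least 14.3-fold lower, taken from its mean 24 hpf level and the lowest level counted as above background at 96 hpf. The differences of col5a3b, 1.19 (SE 0.43, adjusted p = 0.0612), and of col5a2a, 0.79 (SE 0.29, adjusted p = 0.0662), did not pass the threshold. One of the 3 col5a2a probes passed it, at 1.43 (adjusted p = 0.00738).

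Among the 11 cartilage collagens 7 passed the threshold as higher (17.3% of all genes) and none as lower (15.1%). The other 4 did not pass, and of these col9a1b and col27a1b had differences below 0. col10a1a, whose product is laid down by hypertrophic chondrocytes, had log2 signals of 13.47 (copper) and 12.84 (control) at 96 hpf, against 5.71 (copper) and 6.09 (control) at 24 hpf. It rose by 7.25 (SE 0.45, 153-fold, adjusted p = 3.89e-06). The remaining 3 probes stayed near background on both arrays of 24 hpf. Their bounds were at least 2366-fold, at least 1195-fold and at least 50.7-fold, each higher at 96 hpf. These bounds come from different probes and differ with how bright each probe is.

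col9a1a, a chain of type IX collagen that decorates cartilage fibrils, had log2 signals of 10.32 (copper) and 10.91 (control) at 96 hpf, against 5.89 (copper) and 4.82 (control) at 24 hpf. Its 1 probe rose by 5.26 (SE 0.53, 38.3-fold, adjusted p = 8.46e-05). The paralogue col9a1b gave another picture, with 15.00 (copper) and 15.39 (control) at 96 hpf, against 15.29 (copper) and 15.68 (control) at 24 hpf. Its ages overlapped, its difference of -0.29 (SE 0.22, adjusted p = 0.344) did not pass, and neither did any of its other 4 probes, which lay between -0.78 and -0.50. The partner chain col9a2 rose by 1.31 (SE 0.20, adjusted p = 0.0011), and its other probe by 1.48 (adjusted p = 0.0418).

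Type XI chains, which sit in the core of cartilage fibrils, rose by 0.64 to 2.01 on their brightest probes. col11a2 had log2 signals of 12.30 (copper) and 12.75 (control) at 96 hpf, against 10.72 (copper) and 10.30 (control) at 24 hpf, a rise of 2.01 (SE 0.38, adjusted p = 0.00341) that its other probe repeated at 1.94 (adjusted p = 0.00654). col11a1b rose by 1.67 (SE 0.46, adjusted p = 0.0213), a call that ended with no detection filter (adjusted p = 0.0792). With age alone in the model, its rise was smaller without the 24 hpf control array. col11a1a passed narrowly, at 0.64 (SE 0.21, adjusted p = 0.0381). The call ended with 75th-percentile scaling (adjusted p = 0.074) and normexp correction (adjusted p = 0.0553), and its other probe did not pass (0.50, adjusted p = 0.599). Leaving out 1 array, with age alone in the model, gave 0.60 to 0.69. Such a fit leaves 1 array at an age, so only its difference is given.

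The type II genes, the main fibril formers of cartilage, were less clear. col2a1b had log2 signals of 16.11 (copper) and 16.22 (control) at 96 hpf, against 15.15 (copper) and 15.48 (control) at 24 hpf, and rose by 0.85 (SE 0.21, adjusted p = 0.0117). That call ended without the mean-variance trend (adjusted p = 0.162) and with no detection filter (adjusted p = 0.0614). Of its other probes 1 passed, at 0.89 (adjusted p = 0.0229), and 1 did not, at 0.68 (adjusted p = 0.232). col2a1a had 13.90 (copper) and 14.52 (control) at 96 hpf, against 14.38 (copper) and 11.76 (control) at 24 hpf, so that its ages overlapped. Its difference of 1.14 (SE 0.58, adjusted p = 0.164) passed on none of its 4 probes. With age alone in the model it was -0.17 without the 24 hpf control array. It was 2.45 without the 24 hpf copper array and 1.45 without the 96 hpf copper array. The type XXVII fibril-forming genes col27a1a (0.68, adjusted p = 0.316) and col27a1b (-0.08, adjusted p = 0.928) did not pass.

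The one basement membrane gene, col4a5, an alpha chain of type IV collagen, had a difference of 0.51 (SE 0.44, adjusted p = 0.413). With age alone in the model it was -0.29 without the 24 hpf control array and 1.32 without the 24 hpf copper array. Its other probe passed at 1.52 (adjusted p = 0.0245).

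The remaining collagens held the largest rise by brightest probe and 2 of the 3 falls. col17a1a, a transmembrane collagen that anchors skin cells to the matrix below them, had log2 signals of 13.16 (copper) and 13.21 (control) at 96 hpf, against 5.86 (copper) and 5.93 (control) at 24 hpf. It rose by 7.29 (SE 0.42, 157-fold, adjusted p = 2.48e-06), and by 6.12 after normexp background correction. Its other detected probe rose by 7.30, but was not well above background on the 24 hpf control array. col28a2a, a collagen with von Willebrand factor A domains, had 8.26 (copper) and 9.99 (control) at 96 hpf, against 13.42 (copper) and 12.21 (control) at 24 hpf. It fell by 3.69 on the log2 scale (SE 0.60, 12.9-fold, adjusted p = 0.00136) on its 1 probe. The copper and control arrays of that probe differed 3.31-fold at 96 hpf and 2.31-fold at 24 hpf.

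The short-chain type VIII genes, whose products form hexagonal networks in mammalian vessels and cornea, parted. col8a1a had log2 signals of 7.56 (copper) and 8.30 (control) at 96 hpf, against 10.67 (copper) and 10.14 (control) at 24 hpf, and fell by 2.48 (SE 0.48, 5.57-fold, adjusted p = 0.00359). col8a2 had 7.06 (copper) and 7.36 (control) at 96 hpf, against 5.64 (copper) and 5.14 (control) at 24 hpf. It rose by 1.82 (SE 0.51, adjusted p = 0.023), a call that ended with no detection filter. Neither gene's age ranges overlapped.

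**Figure D2:**
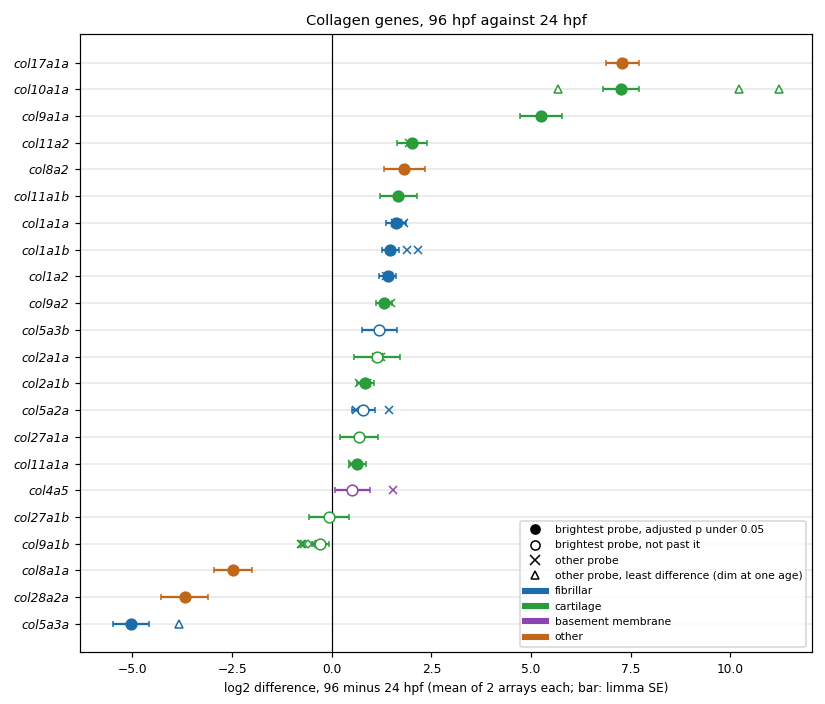
Log2 difference of each collagen at 96 hpf minus 24 hpf (x axis), with the brightest probe as a circle with its limma SE, filled where the adjusted p is under 0.05, other probes as crosses and least differences as triangles. The filled circles run from -5.03 for col5a3a to 7.29 for col17a1a, with 12 on the positive and 3 on the negative side.

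Copper at 96 hpf was compared between 1 copper and 1 control array, which allows no test, so differences are described with the count past 2-fold. None of the 22 collagens was 2-fold or more higher in copper, where 5.65% of all measured genes were, and 1 was 2-fold or more lower, where 1.8% were. Small differences lay mostly below 0. In 19 of 22 collagens the copper array was the lower one, against 56% of all genes, and the median collagen difference was -0.20, against -0.05 over all genes. Over probes, 37 of 48 lay below 0, where 58.1% of all probes did, with none 2-fold or more higher (5.18%) and 1 lower (2.37%).

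The collagen past 2-fold was col28a2a, at 8.26 on the copper and 9.99 on the control array, a difference of -1.73 (3.31-fold lower in copper) from 1 probe. The next in size was col8a1a, at 7.56 on the copper and 8.30 on the control array, a difference of -0.74 (1.67-fold lower) and also from 1 probe. All 4 detected collagens outside the fibrillar, cartilage and basement membrane classes lay below 0 in copper, where 56% of all genes did. Of these, col8a2 was at -0.29 and col17a1a at -0.05.

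Cartilage collagens at 96 hpf were lower in copper in 10 of 11 genes, where 56% of all genes were. Their median was -0.27, against -0.05 over all genes. col2a1a had log2 signals of 13.90 on the copper and 14.52 on the control array, a difference of -0.62, and its 4 probes gave -0.74 to -0.55. col9a1a differed by -0.59 on its 1 probe and the 5 probes of col9a1b by -0.64 to -0.39. Both col11a2 probes lay near -0.45 (-0.45 and -0.44), and the brightest probes of col27a1a (-0.35), col11a1b (-0.27), col9a2 (-0.13), col2a1b (-0.11), col27a1b (-0.11) and col11a1a (-0.08) were nearer 0.

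The exception was col10a1a, at 13.47 on the copper and 12.84 on the control array. It was 0.63 higher in copper (1.55-fold), and its 4 probes gave 0.63 to 0.74. Type X collagen thus lay on the other side of 0 from the other cartilage collagens on every probe measured, at a size below 2-fold in a pair of single arrays.

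Among fibrillar collagens, the type I genes and col5a2a were nearly level between the 96 hpf arrays. The brightest probes of col1a1a (-0.06), col1a1b (-0.03), col1a2 (0.01) and col5a2a (0.02) lay within 0.06 of 0, whereas col5a3a (-0.43) and col5a3b (-0.55) were lower in copper. All 4 probes of col1a1a lay below 0, by -0.06 to -0.04, and all 3 of col1a2 above it, by 0.01 to 0.22. The basement membrane gene col4a5 was at 11.99 on the copper and 12.07 on the control array, a difference of -0.08, with -0.17 on its other probe.

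Probes of one collagen agreed closely at this age, as probes of one gene did in general. Of 13 collagens with 2 or more measured probes, 9 had every probe lower in copper (49% of all such genes), 2 had every probe higher (27.6%) and 2 were mixed (23.5%). None had probes 2-fold or more apart, where 2.71% of all such genes did, so none among 13 was near that share.

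**Figure D3:**
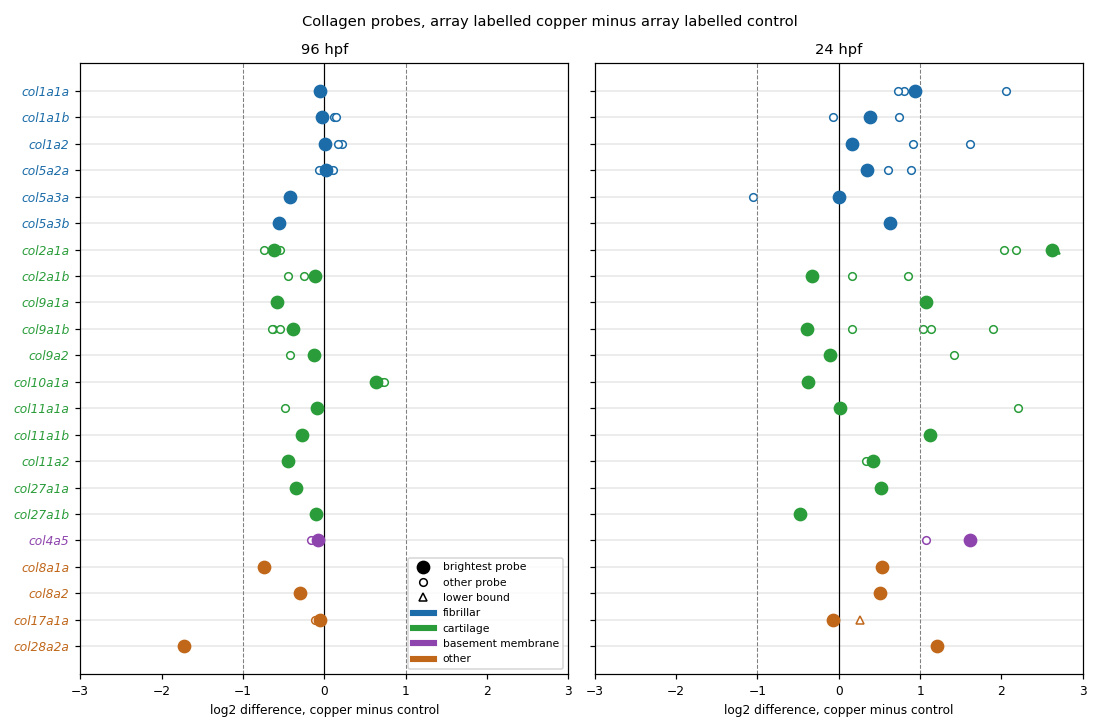
Log2 difference, copper-labelled minus control-labelled array (x axis), of every measured collagen probe at 96 hpf (left) and 24 hpf (right), with the brightest probe of a gene filled, the other probes open, lower bounds as triangles and dashed lines at 2-fold. At 96 hpf the probes of a gene lie close together and mostly left of 0. There col10a1a lies to the right and col28a2a past the left line. At 24 hpf the probes spread widely, with the brightest probe of col2a1a at 2.62 and a lower bound for another at 2.66.

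Copper at 24 hpf gave larger and less uniform differences, again between 1 copper and 1 control array. By the brightest probe 5 of 22 collagens were 2-fold or more higher in copper, where 3.21% of all measured genes were, and none was 2-fold or more lower, where 5.9% were. The median collagen difference was 0.40, against -0.26 over all genes, and 16 of 22 collagens lay above 0, where 28.8% of all genes did. By probes, 38 of 46 lay above 0 (42.8% of all probes), 16 were 2-fold or more higher (8.82%) and 1 was 2-fold or more lower (5.88%). The copper array of this pair had the higher median signal of the 4 arrays, as given above, and the part of that difference in these values was not tested.

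The largest difference was that of col2a1a, which codes for the main fibril chain of cartilage and of the embryonic notochord sheath. Its brightest probe had log2 signals of 14.38 on the copper and 11.76 on the control array, a difference of 2.62 (6.14-fold higher in copper). Its next probes gave 2.17 (4.51-fold) and 2.03 (4.08-fold). The last, not well above background on the control array, was at least 6.34-fold higher in the quantile-normalized signals. After normexp background correction that last probe was only 1.45 higher on the log2 scale. In the authors' deposited table these probes lie on the plus strand of chromosome 8 in the Zv9 build, at chr8:21756240-21756299, chr8:21756370-21756429, chr8:21756128-21756186 and chr8:21749023-21749082 in the order given. At 24 hpf the 4 col2a1a probes therefore all lay on one side of 0, and at 96 hpf all on the other.

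The other cartilage collagens past 2-fold at 24 hpf were each measured by 1 probe. col11a1b, a type XI chain, had log2 signals of 9.79 on the copper and 8.67 on the control array, a difference of 1.12 (2.18-fold). col9a1a had 5.89 on the copper and 4.82 on the control array, a difference of 1.08 (2.11-fold) that was 0.45 after normexp background correction.

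For 4 more cartilage genes the answer depended on the probe. The brightest col9a1b probe differed by -0.39, the next by 0.16, and the other 3 by 1.04, 1.13 and 1.90. In the authors' deposited table those last 3 lie on the minus strand of chromosome 13, at chr13:39680275-39680334, chr13:39701330-39701496 and chr13:39719721-39719780. col9a2 differed by -0.11 on its brightest and 1.41 on its other probe, and col2a1b by -0.33, 0.17 and 0.85, so these genes had no single direction at this age. col11a1a was near 0 on its brightest probe, at 0.02 (-0.23 with 75th-percentile scaling). It was 4.59-fold higher on its other, a log2 difference that was 1.38 after normexp background correction.

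The last 4 cartilage genes were below 2-fold at 24 hpf. col11a2 was above 0 on both probes, at 0.42 and 0.34, and the 1 measured probe of col27a1a was at 0.52. col27a1b, with 1 measured probe, had log2 signals of 6.23 on the copper and 6.70 on the control array, a difference of -0.48, the lowest of the class. col10a1a, with 5.71 on the copper and 6.09 on the control array, differed by -0.37 on its 1 measured probe, and by 0.03 with 75th-percentile scaling. The cartilage median of 0.02 over brightest probes thus stood beside 18 of 23 cartilage probes above 0, where 42.8% of all probes lay.

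Fibrillar collagens at 24 hpf lay above 0 in 6 of 6 genes by brightest probe, where 28.8% of all genes did. Their median was 0.37, against -0.26 over all genes, and col5a3a was at 0.002. With 75th-percentile scaling 4 of 6 lay above 0, where 66.5% of all genes lay below. That scaling put col1a2 at -0.05 and col5a3a at -0.11. With the brightest probe chosen anew on that scale, col1a1b also lay below 0, at -0.27. col1a1a had log2 signals of 15.41 on the copper and 14.47 on the control array, a difference of 0.94 (1.92-fold), and its other probes gave 0.73, 0.80 and 2.06. col1a2 gave 0.17, 0.91 and 1.61, and col5a2a gave 0.35, 0.60 and 0.89. All 10 probes of these genes lay above 0, with the dimmest probe of the type I genes furthest from it.

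The brightest col1a1b probe was 0.39 higher in copper and the others gave -0.07 and 0.74. col5a3b was 0.63 higher on its 1 detected probe. col5a3a was level on its brightest probe, at 11.47 on both arrays, and -1.05 on the other, the 1 collagen probe 2-fold lower in copper at this age.

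The basement membrane gene col4a5 had log2 signals of 12.32 on the copper and 10.71 on the control array, a difference of 1.61 (3.06-fold higher in copper), and its other probe gave 1.08 (2.11-fold). The authors' deposited table puts these probes on the plus strand of chromosome 7 in Zv9, at chr7:52641761-52641820 and chr7:52635586-52635734.

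col28a2a had log2 signals of 13.42 on the copper and 12.21 on the control array, a difference of 1.21 (2.31-fold higher in copper), the opposite side from 96 hpf. Its probe lies on the minus strand at chr9:49286008-49286067 in the authors' deposited table, which names it col28a1a. col8a1a was 0.53 and col8a2 0.51 higher in copper. col17a1a differed by -0.07 on its brightest probe, and its other probe, not well above background on the control array, was at least 1.20-fold higher in copper.

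Agreement between probes was thus poorer than at 96 hpf. Of 12 collagens with 2 or more measured probes, 7 had every probe higher in copper (20.7% of all such genes), none had every probe lower (29%) and 5 were mixed (50.2%). In 7 of the 12 the probes were 2-fold or more apart, where 28.9% of all such genes were. In 8 of the 12 the dimmest probe lay above the brightest, as it did in 81.5% of all such genes, so a shift of dim probes towards the copper array was general at 24 hpf.

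Across both ages together, the copper term of the limma model passed the threshold for none of the 49 collagen probes and for none of the 36027 probes tested, by Benjamini-Hochberg adjustment (smallest adjusted p = 0.9999). At an unadjusted p under 0.05 there were 710 probes in all (1.97%), and 2 of the 49 collagen probes, both of col1a2, the smaller p being 0.0323. With 75th-percentile scaling, normexp correction or no mean-variance trend the adjusted count was 0 as well. The copper term averages the ages, so differences of opposite sign partly cancel in it and add to its error. The median collagen difference was -0.20 at 96 hpf and 0.40 at 24 hpf. A lack of calls therefore cannot speak of copper differences at a single age.

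The genes that fold and modify collagen chains were, like most collagens, mostly lower in copper at 96 hpf. Of 21 measured members of the processing list, 18 were lower in copper (56% of all genes), 4 by 2-fold or more (1.8% of all genes) and none higher by 2-fold (5.65%), with a median of -0.37. serpinh1b, the collagen chaperone known as HSP47, had log2 signals of 12.48 on the copper and 13.96 on the control array, a difference of -1.47, and its 3 probes gave -2.29 to -1.47. p4ha1b, a prolyl 4-hydroxylase chain that stabilises the helix, had 10.00 on the copper and 11.89 on the control array, a difference of -1.89. The lysyl hydroxylase gene plod1a differed by -1.18, with its 4 probes between -1.47 and -1.18, and fkbp10b, a chaperone and prolyl isomerase, by -1.16. These 4 lay past 2-fold with 75th-percentile scaling and normexp correction too, but p4ha1b and fkbp10b had 1 detected probe each.

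At 24 hpf the processing list had a median of -0.18, against -0.26 over all genes. By brightest probe, 2 of its 22 members were 2-fold or more lower in copper (5.9% of all genes) and none was higher (3.21%). On other probes plod3 reached 2.74 and sec23b 1.11. With 75th-percentile scaling 4 members were 2-fold or more higher, where 5.45% of all genes were: plod2 (1.28), p4ha1a (1.23), pcolceb (1.20) and colgalt1b (1.08). The prolyl hydroxylase genes p4ha2 (-1.41, all 3 probes below 0) and p4ha1b (-1.19) were the members lower in copper. serpinh1b differed by 0.46 on its brightest probe, above 0 on all 3 and up to 2.65. p4ha1b was thus lower in copper at both ages, on its 1 detected probe. By contrast serpinh1b lay on opposite sides of 0 at the ages, a difference that was not tested.

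Lysyl oxidases, measured for 5 genes, had none past 2-fold at 96 hpf and a median of -0.32. Over all genes 5.65% were 2-fold or more higher at that age and 1.8% lower, so none among 5 was near those shares. loxa, a lysyl oxidase, was an exception on all 4 probes, at 11.53 on the copper and 10.88 on the control array, a difference of 0.65. At 24 hpf loxl2a (-1.22) and loxa (-1.01) were 2-fold or more lower in copper, where 5.9% of all genes were, but neither was past 2-fold with 75th-percentile scaling or normexp correction. The other loxl2a probe was at -0.10. By contrast loxl2b was above 0 on all 3 probes at 24 hpf, at 0.28 on its brightest and up to 1.61. Only 1 of the 4 loxa probes was measured at 24 hpf, at a low 3.79 on the copper and 4.80 on the control array.

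Of 18 measured genes of cartilage and bone cells, 3 were 2-fold or more higher in copper at 96 hpf (5.65% of all genes) and 1 was lower (1.8%), with a median of 0.12. ihha, a hedgehog ligand of hypertrophic cartilage, had log2 signals of 9.27 on the copper and 7.64 on the control array, a difference of 1.63. spp1, which codes for the bone matrix protein osteopontin, had 10.36 on the copper and 8.92 on the control array, a difference of 1.44, with 3 of 3 probes higher. ucmaa, a gene of maturing cartilage, differed by 1.36 and hapln1a, which links hyaluronan to aggrecan, by -1.15, the last not past 2-fold after normexp correction. Of these genes ihha, ucmaa and hapln1a had 1 detected probe each. The genes named here stood beside the higher col10a1a and the lower remaining cartilage collagens of the same arrays.

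At 24 hpf hapln1a was 1.58 higher. runx3, a transcription factor of cartilage maturation, lay at -1.22, short of 2-fold with 75th-percentile scaling, and at -0.06 on its other probe. The list median was -0.37, against -0.26 over all genes. That median was -0.01 with 75th-percentile scaling, with 9 genes above and 9 below 0, and -0.21 after normexp correction. Small leucine-rich and other collagen-binding proteins split at 96 hpf, with a median of -0.11 over 14 genes. The biglycan gene bgna was at 1.28 and the keratocan gene kera, with 1 detected probe, at -1.38. At 24 hpf nid1b, whose product nidogen joins laminin to type IV collagen, was 1.76 higher in copper (9.79 on the copper and 8.03 on the control array). This came from 1 detected probe, next to a list median of -0.15.

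Collagen-degrading enzymes and their inhibitors had a median of 0.16 at 96 hpf and -0.25 at 24 hpf over 8 genes. Over all genes the medians were -0.05 at 96 hpf and -0.26 at 24 hpf. The metalloproteinase gene mmp30 differed by 1.04 at 96 hpf on its 1 detected probe, below 2-fold with either other scaling. By brightest probe, genes of the notochord and the tail fin fold had none past 2-fold at either age. Their medians were -0.27 at 96 hpf and -0.06 at 24 hpf. On other probes at 24 hpf fras1 reached 2.42, frem3 1.74 and noto -1.22. Over all genes 5.65% were 2-fold or more higher and 1.8% lower at 96 hpf. At 24 hpf these shares were 3.21% and 5.9%, so none in so short a list was near them. With 75th-percentile scaling 4 of the 14 were 2-fold or more higher in copper at 24 hpf (5.45% of all genes), namely frem1a (1.34), cav1 (1.24), frem2a (1.18) and frem3 (1.08).

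**Figure D4:**
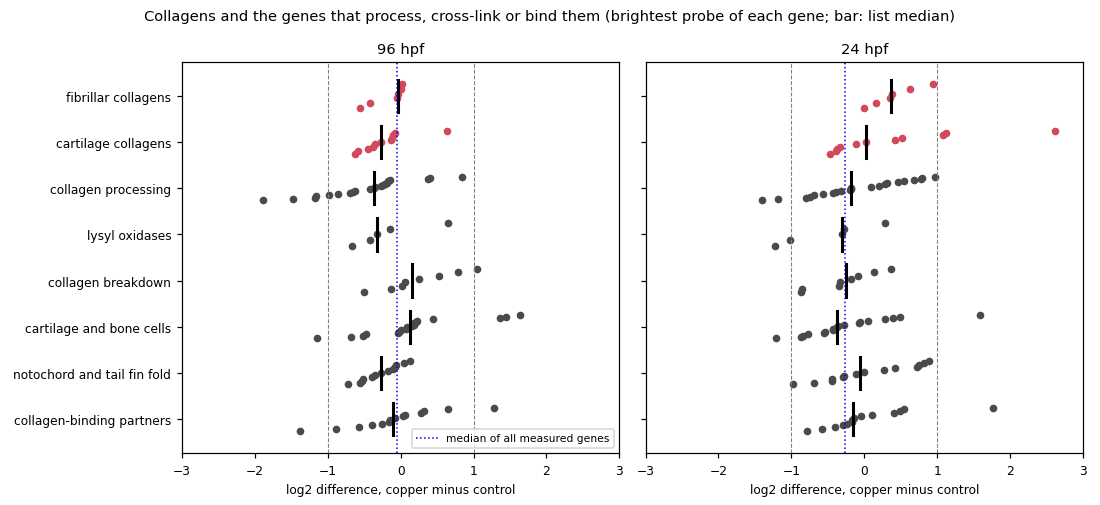
Log2 difference, copper minus control (x axis), of the brightest probe of each gene at 96 hpf (left) and 24 hpf (right), for fibrillar and cartilage collagens (red) and for lists of genes that process, cross-link, degrade or bind collagens or mark cartilage, bone, notochord and fin fold (grey). Bars are list medians, the dotted line is the median of all genes and dashed lines mark 2-fold, with the processing list reaching -1.89 at 96 hpf.

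The matrix lists were also set against age by limma, by which 17.3% of all genes were higher and 15.1% lower at 96 hpf. Of these lists, 11 of 18 cartilage and bone genes, 10 of 14 collagen-binding genes and 6 of 8 breakdown genes rose and none of them fell, while the processing list had 3 rises and 4 falls, the lysyl oxidases 1 of each, and the notochord and fin fold list 3 rises and 5 falls. The 3 rises and 4 falls among 22 processing genes were near the shares over all genes. The matrilin genes matn3a (8.62, SE 0.43) and matn1 (7.54, SE 0.32), whose products join cartilage fibrils, rose. So did loxa (6.91, SE 0.53) and the actinodin genes and3 (7.32, SE 0.38) and and2 (6.49, SE 0.30) of the fin fold. The brightest probes of col10a1a and col17a1a rose by 7.25 and 7.29, but another col10a1a probe by at least 2366-fold. Such sizes differ with how bright each probe is. p4ha1b fell by 2.57 (SE 0.35) and serpinh1b fell by 1.91 (SE 0.40).

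Markers of cartilage and bone, notochord and fin fold were read as signals of whole embryos. Of 8 detected cartilage and bone markers, 5 lay above and 3 below 0 in copper at 96 hpf (56% of all genes below 0), and 1 above (28.8% of all genes) and 7 below at 24 hpf. The log2 of their summed signal was 17.32 on the copper and 17.31 on the control array at 96 hpf, against 13.52 on the copper and 13.99 on the control array at 24 hpf. Most of the 96 hpf sum was matn1, at 16.60 on the copper and 16.52 on the control array. Most of the 24 hpf sum was cnmd, at 13.09 on the copper and 13.64 on the control array. The sums of the ages thus rest mainly on different genes. All 8 were well above background on every array, as were the notochord markers; the fin fold marker frem2a was not at 96 hpf. For 4 notochord markers the sum was 12.55 (copper) and 13.08 (control) at 96 hpf, against 13.39 (copper) and 13.60 (control) at 24 hpf, and for 6 fin fold markers 17.45 (copper) and 17.55 (control) at 96 hpf, against 13.63 (copper) and 13.88 (control) at 24 hpf. The part of these cell types in the collagen differences was not tested.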

How the data were processed

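Per the series' design text and the file headers, total RNA was labelled by the Quick Amp protocol (version 5.7), hybridised to a 4-array Agilent slide and read with Feature Extraction 11.0.1.1; all 4 arrays shared a slide and scan. The deposited scanner files give each spot's processed signal as a linear intensity, background-corrected by that software, with a flag for spots well above background. The authors' deposited table gives log2 values and fold ratios from GeneSpring GX 11.5.1, used here only as a named comparison; its 16 per-sample columns were not used.

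Of 43603 probes, 34 with outlier spots were left out. Log2 processed intensity, in which the dimmest spots already hold surrogate levels, was quantile-normalized, which forces equal distributions on all arrays. A probe was kept if flagged as above background on 2 or more arrays (36027). Names came from RefSeq accessions matched to the GRCz12tu gene table; 25957 probes matched 13366 genes. Copper at 1 age was described without a test, since each group held 1 array. limma 3.58.1 (R 4.3.3) fitted age and copper with a mean-variance trend over all probes, with Benjamini-Hochberg adjustment, and was tested on simulated data. A probe dim in 1 group gave a bound. Tables and figures used Python 3.11.15, pandas 2.3.3, numpy 2.4.6 and matplotlib 3.10.9.

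Every collagen is accounted for; named with values are those past 2-fold, the 3 highest and 3 lowest per class and age, and the 8 largest rises and falls by age, with up to 4 genes of each of 6 lists. The members and the gene lists were chosen with earlier results of these data known. Alternatives were 75th-percentile scaling, normexp correction with an offset of 50, other detection rules, the mean of a gene's probes, a 1.5-fold threshold, the treatment of the file names, and other limma settings.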

Additional observations from a re-analysis of the deposited data

Results flagged for a closer look

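The collagen col28a2a lay on opposite sides of 0 at the ages and past 2-fold at both. Copper minus control was -1.73 at 96 hpf and 1.21 at 24 hpf on the log2 scale, from 1 probe and 1 array per group. The difference between the ages was not tested.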

How the results depend on the processing

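No paired analysis was possible because the groups share only replicate number 1. With the treatment that the file names give, the median collagen difference was 0.20 at 96 hpf and -0.40 at 24 hpf, and the counts past 2-fold were 1 higher and 0 lower at 96 hpf, and 0 higher and 5 lower at 24 hpf. At a 1.5-fold threshold 1 collagen was higher and 4 lower in copper at 96 hpf, and 7 were higher and none lower at 24 hpf. The shares of all genes at 1.5-fold are not given here, so these counts show only how the collagen count moved with the threshold. The 24 hpf collagen median was 0.62 with the mean of a gene's probes, a setting for which no value over all genes is given here. The 1 collagen probe 2-fold lower at 24 hpf became 0 with 75th-percentile scaling, normexp correction or detection on all 4 arrays. 75th-percentile scaling moved the median of all probes at 24 hpf to 0.04, against -0.11. The median of all genes by brightest probe stayed at -0.27, against -0.26.

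For age, the count of higher collagens was 8 with no detection filter and 9 without the trend. It was 11 with either other scaling, 14 with age alone, and 10 where every detected probe had to pass. The last alternative was chosen after seeing the data. In each setting 3 were lower. The shares of all genes under these settings are not given here, so the counts show only how the collagen calls varied with the setting. Leaving out 1 array, with age alone in the model, leaves 1 array at an age, so only differences and no calls are given for it. Signs reversed for col27a1b (0.28 with 75th-percentile scaling, and -0.31 to 0.16 with 1 array left out). They also reversed with 1 array left out for col2a1a (-0.17 to 2.45) and col4a5 (-0.29 to 1.32). Both genes were negative without the 24 hpf control array. With age alone and all arrays, col5a2a (adjusted p = 0.0411) and col5a3b (0.0396) became calls. Calls ended with no detection filter for col2a1b, col11a1a, col11a1b (0.0792) and col8a2 (0.0863), without the trend for col2a1b, col11a1a and col9a2 (0.0532), and with either other scaling for col11a1a. The causes were not tested. With 1 array a group, no difference at a single age can be set against the spread between embryos, and dim probes are bounded by background.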

Other observations

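The authors' deposited table names further probes as collagens that the accession rule did not reach. With its signs turned to the sample labels, and chosen because that table lists probes past 2-fold, copper minus control at 24 hpf was 3.53 for col9a3, 1.74 for col4a6, 1.83 for col18a1a, 1.74 and 1.05 for further probes of col1a1a and col4a5, and -2.03 for col14a1a. At 96 hpf another col18a1a probe was at -1.03. A second col28a2a probe in that table was at -1.47 at 96 hpf and 1.88 at 24 hpf, on the same sides of 0 as the probe described above.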
